A study of Mus musculus with 7 samples.

Results

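Muscle contracts through sarcomeres, and the 9 genes described here encode the proteins that hold the sarcomere in shape and anchor it to the cell surface. They are Ttn, Neb, Myom1, Myom2, Actn2, Actn3, Tcap, Des and Dmd. Members were taken by gene symbol, as every non-control probe that the array annotation gives to these genes, which yielded 16 of the 39429 probes and 9 of the 31829 gene names on the array. Ttn and Dmd have 4 probes each, Neb has 2 and the other genes have 1. No measured value entered the rule that took the probes, but the genes were chosen with earlier results of these data known.

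The recipient cells were C2C12, a mouse skeletal muscle line whose myoblasts fuse into myotubes, and they were incubated for 24 h with exosomes (small vesicles that cells release) from other C2C12 cultures. In EXO-Post BSA (n = 4) the donor cultures had received BSA, the carrier of the fatty acid. In EXO-Post Palm (n = 3) they had received palmitate, a saturated fatty acid, at 0.5 mmol/l. Exosomes were collected after 9 h without palmitate and the recipients are described in the paper as myotubes in serum-free medium, whereas the array labels give the cell type as myoblast. The cell line is written C2C12 on the first array, and its number goes up by 1 from array to array in the labels. Labels call the arrays biological replicates. The p-values below measure the spread between these cultures of a single cell line.

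RNA of each culture (0.1 µg) was labelled with Cy3 and hybridised to a 1-colour Agilent array. The authors deposited the intensity of each spot, corrected for background within the array. Values below are log2 of that intensity minus the array's own 75th percentile, so 0 is the 75th percentile and 1 unit is a doubling. Probes differ in how well they bind, so a value is compared between arrays for a given probe and never between probes. A probe was tested with limma when the scanner software put it well above background on 75% or more of either group's arrays. That left 21585 probes, 14 of them for the 9 genes. Between 48.5 and 70.3% of probes per array stood well above background, and arrays correlated at 0.946 to 0.985 between groups. The file of EXO-Post BSA replicate 3 came from another version of the scanner software than the other files. That array also had the most spots marked as uneven or as outliers, 371 against 136 to 267 on the other arrays. Of the 4 slides, slides 1 and 3 carried arrays of both groups. Replicates 1 and 2 of EXO-Post BSA shared slide 1 with replicate 1 of EXO-Post Palm, and replicate 4 of the former shared slide 3 with replicate 3 of the latter. EXO-Post BSA replicate 3 and EXO-Post Palm replicate 2 were alone on slides 2 and 4. Below, slide as a block means a fixed term per slide, so such a fold change rests on the arrays of slides 1 and 3 only. In bulk RNA, fewer myotubes and less transcript per myotube cannot be told apart.

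As background, titin (Ttn) is the giant elastic protein that runs from the Z-disc to the M-band and sets the resting length of the sarcomere. Nebulin (Neb) lies along the thin filament and helps to set its length. Myomesins (Myom1, Myom2) cross-link thick filaments at the M-band, and the muscle alpha-actinins (Actn2, Actn3) cross-link thin filaments at the Z-disc, where telethonin (Tcap) caps the end of titin. Desmin (Des) forms the intermediate filaments that tie neighbouring Z-discs to each other and to the membrane. Dystrophin (Dmd) links cortical actin to a membrane complex and through it to the matrix. Most of these proteins accumulate as myoblasts become myotubes, while desmin is already made in proliferating myoblasts and short forms of dystrophin are made in other cell types.

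No probe of the 9 genes passed the test after adjustment. At an adjusted p of 0.05, limma called 0 of 14, beside 0.533% of all tested probes (115, with 100 up and 15 down in EXO-Post Palm). With the background correction normexp in place of the scanner's, that split was 120 to 42 or 97 to 31, depending on the scaling. Those settings also took median spot intensities in place of the scanner's processed signal. At an unadjusted p of 0.05, 2 of 14 probes passed, Des upward and a Ttn probe downward, beside 10.0% of all tested probes. Of the 14 probes, EXO-Post Palm had the lower mean for 10 and the higher for 4, beside 47.3% higher among all tested probes. The median log2 fold change of the 14 was -0.14, beside -0.02 over all tested probes. The arrays of the groups did not overlap for 2 probes that were higher with EXO-Post Palm (Des and the first Dmd probe), beside 5.40% of all tested probes. They did not overlap for 3 probes that were lower (Ttn, Neb and Myom1), beside 5.87%. The exact permutation test used below compares group means over all 35 divisions of the 7 arrays into groups of 4 and 3 and is 2-sided. Its smallest possible p is 0.0286.

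**Figure D1:**
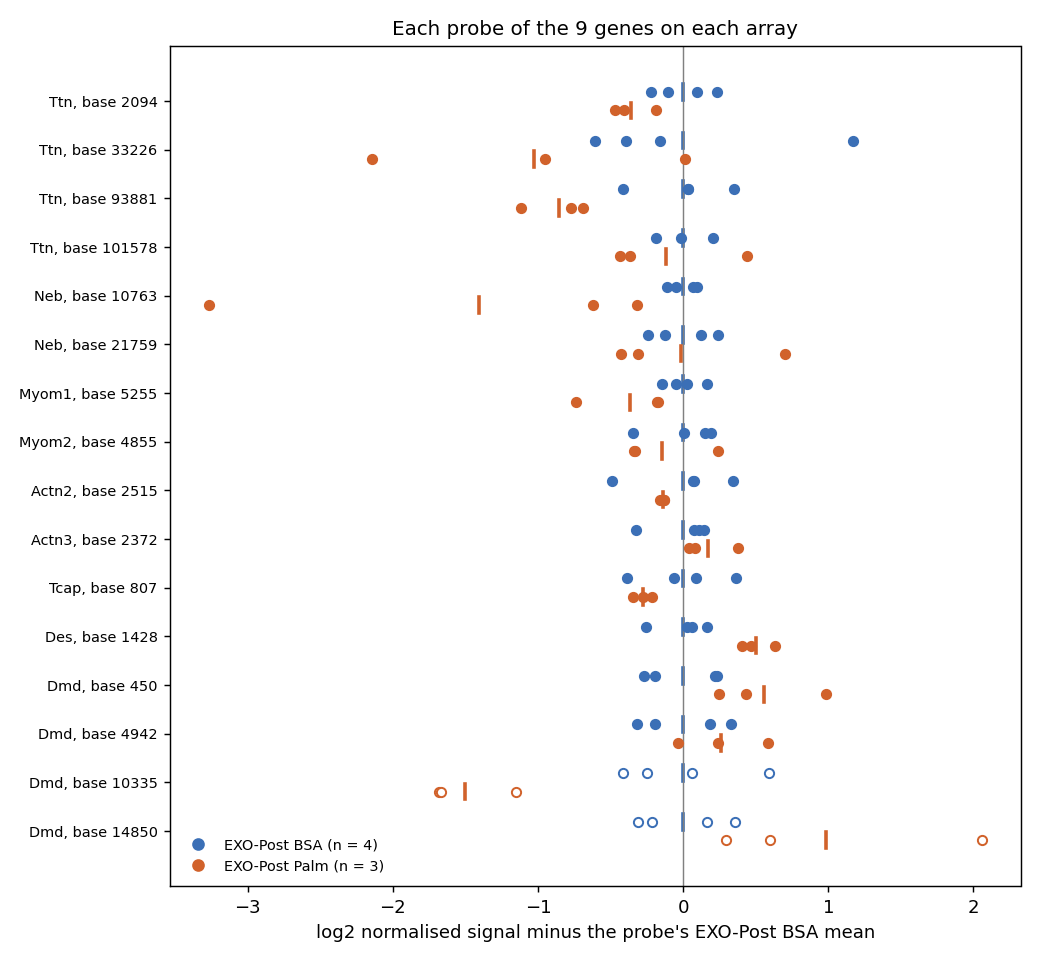
Each point is an array, placed by its log2 signal minus the mean of the 4 EXO-Post BSA arrays for that probe, with rows giving the gene and the base of its transcript where the probe starts. Short bars are group means (n = 4 and 3, or 3 and 3 for Ttn at base 101578), and open points mark the 2 Dmd probes that were not tested. Des sits to the right of all EXO-Post BSA arrays, Ttn at base 93881 to the left, and a lone Neb array lies more than 3 units down.

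Titin was read at 4 places. Its probes are shown here because they lie far apart on the transcripts and gave unlike values. The first lies in the Z-disc end of the coding sequence, the next in the elastic I-band stretch, and a further probe in the repeats of the thick filament region. Capitals mark the GAA, GAG, AAA and AAG triplets in the open frame of the I-band probe, which make up 7 and 6 of its 20 triplets and code for glutamate and lysine, the residues that this elastic stretch is known for.
Ttn, base 2094: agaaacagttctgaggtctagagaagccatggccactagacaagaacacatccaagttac
Ttn, base 33226: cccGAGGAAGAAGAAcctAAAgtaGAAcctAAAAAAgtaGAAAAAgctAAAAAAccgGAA
Ttn, base 93881: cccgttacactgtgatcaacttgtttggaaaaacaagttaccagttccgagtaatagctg
They are exonic, on the minus strand of mm9 at chr2:76802542-76802601, chr2:76655847-76655906 and chr2:76551742-76551801. The remaining Ttn probe starts at base 101578 (chr2:76542077-76542136), near the transcript's 3' end. The probe at base 2094 is annotated to another Ttn transcript (NM_028004) than the other probes (NM_011652).

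The lowest p among the 14 tested probes was at base 93881 of Ttn. In replicate order, here and below, its values were 2.79, 2.47, 2.02 and 2.47 with EXO-Post BSA and 1.75, 1.32 and 1.67 with EXO-Post Palm. Every EXO-Post Palm array lay below every EXO-Post BSA array, with a gap of 0.27 between the groups. The group means were 2.44 ± 0.32 (SD, n = 4) and 1.58 ± 0.23 (SD, n = 3), a level 1.81-fold higher with EXO-Post BSA. This was a log2 fold change of -0.86 (SE 0.24, limma p = 0.00644, adjusted p = 0.245, exact permutation p = 0.0571), and 567 of all tested probes had a limma p as low or lower. The difference was as large within slides, at -0.88 on slide 1 and -0.80 on slide 3. With slide as a block, which combines these slides, it was -0.85 (limma adjusted p = 0.338).

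The I-band probe of Ttn at base 33226 scattered most within EXO-Post BSA among the 16 probes (SD 0.80). It gave -0.38, -1.71, -1.94 and -2.16 with EXO-Post BSA and -1.54, -3.69 and -2.50 with EXO-Post Palm. Replicate 1 of EXO-Post BSA was far above its group, and the groups overlapped. Its log2 fold change was -1.03 (SE 0.56, adjusted p = 0.595), with a 95% interval of -2.31 to 0.25, and it shrank to -0.43 with slide as a block (adjusted p = 0.773). Within slides it was -0.49 and -0.34. It depended on single arrays, at -0.47 without replicate 2 and -1.55 without replicate 1 of EXO-Post Palm, and -0.64 without replicate 1 of EXO-Post BSA.

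The Z-disc probe of Ttn at base 2094 had -0.14, -0.33, 0.01 and -0.45 with EXO-Post BSA and -0.70, -0.64 and -0.42 with EXO-Post Palm. The highest EXO-Post Palm array reached just into the EXO-Post BSA range. Between group means the log2 fold change was -0.36 (SE 0.21, adjusted p = 0.612), and -0.25 with slide as a block. It was -0.47 within slide 1 and 0.04 within slide 3.

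The 3' end probe of Ttn had 4.22, 4.00 and 3.83 on replicates 1, 2 and 4 of EXO-Post BSA and 3.58, 4.46 and 3.65 with EXO-Post Palm. The spot on EXO-Post BSA replicate 3 was marked as uneven or as an outlier by the scanner software, so the fit drops that array for this probe. EXO-Post Palm replicate 2 was the highest array and the other two were the lowest. The log2 fold change was -0.12 (SE 0.30, adjusted p = 0.921), with a 95% interval of -0.81 to 0.57, and -0.38 with slide as a block (adjusted p = 0.676).

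All 4 Ttn probes therefore had means below those of EXO-Post BSA, and their log2 fold changes ran from -1.03 to -0.12. Probe pairs within a gene were compared after the values were seen, by the exact permutation test on the within-array difference, for 8 pairs in Ttn, Neb and Dmd. EXO-Post BSA replicate 3 has no value for the 3' end probe and was left out of its pairs. Over the other arrays the thick filament and 3' end probes of Ttn differed in log2 fold change by -0.87 (n = 3 and 3). The exact permutation p was 0.10, the smallest that 20 splits allow, and 0.381 adjusted over 8 pairs. The within-array difference of these probes ran from -1.53 to -1.36 with EXO-Post BSA and from -3.13 to -1.83 with EXO-Post Palm. With the marked spot kept, the fold changes differed by -0.70 (exact permutation p = 0.114). The other 5 Ttn pairs had exact permutation p from 0.143 to 0.90. A difference in change along the titin transcript was therefore not resolved with 7 arrays.

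**Figure D2:**
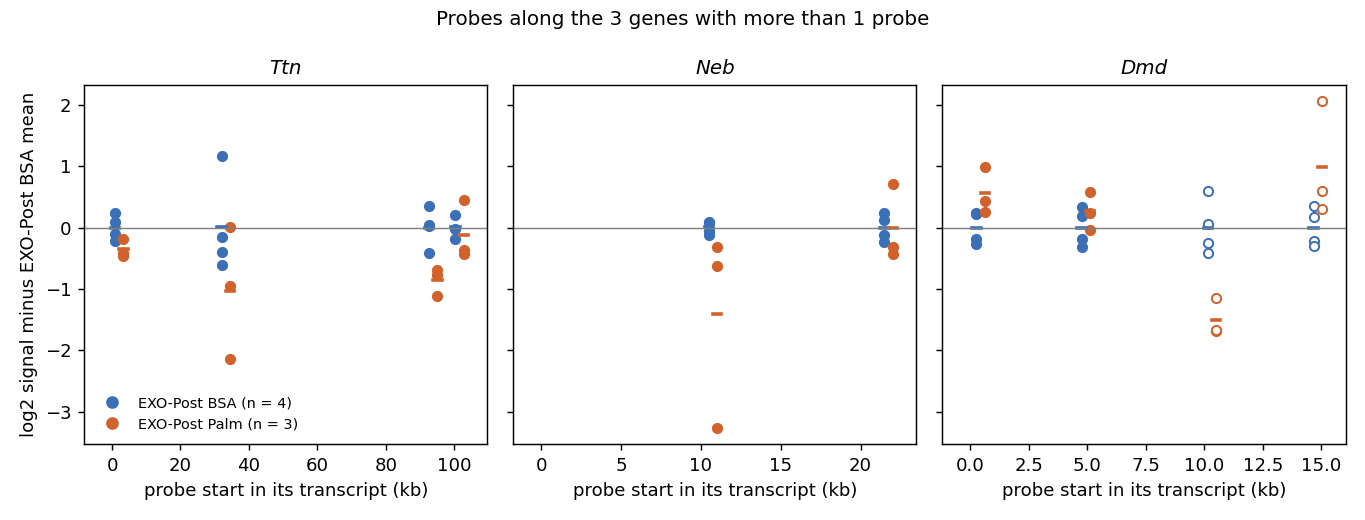
The horizontal axis is the base of its transcript, in kb, at which each probe starts, and the vertical axis is log2 signal minus the probe's EXO-Post BSA mean, for Ttn, Neb and Dmd. Points are arrays, short bars group means, and open points probes that were not tested. The Neb probe at base 10763 holds EXO-Post Palm replicate 3 at 0.90 against 3.55 and 3.85 in its group, while the probe at base 21759 shows no such array.

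Nebulin was read at 2 places, whose probes gave unlike mean differences, and both sequences are given for that reason. The first lies in the repeats that bind actin and the other in the SH3 domain at the Z-disc end of the protein. No letters are marked.
Neb, base 10763: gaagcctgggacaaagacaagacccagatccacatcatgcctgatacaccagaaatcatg
Neb, base 21759: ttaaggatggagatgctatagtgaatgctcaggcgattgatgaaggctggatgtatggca
They are exonic on the minus strand of mm9, at chr2:52097549-52097608 and chr2:51992837-51992896.

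At base 10763 the values were 4.26, 4.06, 4.12 and 4.24 with EXO-Post BSA and 3.55, 3.85 and 0.90 with EXO-Post Palm. All EXO-Post Palm arrays were below all EXO-Post BSA arrays, by a gap of 0.21, and replicate 3 was far below the other two. Its spot had an intensity of 1028, against 9349 to 22290 on the other 6 arrays, was not flagged and stood well above background. Group means were 4.17 ± 0.10 (SD, n = 4) and 2.77 ± 1.62 (SD, n = 3). The difference of means was a log2 fold change of -1.40 (SE 0.62, limma p = 0.0515, adjusted p = 0.503), and the exact permutation p was 0.0286. With that array left out the value was -0.47 (adjusted p = 0.757). It was -0.61 within slide 1 and -3.34 within slide 3, where that array lies.

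At base 21759 Neb had 2.50, 2.74, 2.38 and 2.86 with EXO-Post BSA and 2.31, 3.32 and 2.20 with EXO-Post Palm. EXO-Post Palm replicate 2 was the highest array and the other two were the lowest, which left group means of 2.62 and 2.61. Its log2 fold change was -0.01 (SE 0.30, adjusted p = 0.995), with a 95% interval of -0.70 to 0.68, and -0.46 with slide as a block (adjusted p = 0.616). The fold changes of the Neb probes differed by -1.39 (exact permutation p = 0.0286, adjusted over 8 pairs 0.229). Another nebulin probe (base 5990 of ENSMUST00000069592), which the annotation lists under a transcript identifier and the rule therefore left out, had a log2 fold change of 0.18 (SE 0.27, adjusted p = 0.853).

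The M-band genes were on the lower side with EXO-Post Palm. Myom1 (base 5255, chr17:71475839-71475898 on mm9) had 1.22, 1.15, 1.05 and 1.37 with EXO-Post BSA and 1.02, 0.46 and 1.02 with EXO-Post Palm. The groups did not overlap, but only 0.03 separated them, and replicate 2 set most of the difference. Myom1 had a log2 fold change of -0.36 (SE 0.22, adjusted p = 0.626, exact permutation p = 0.0286), and -0.18 without EXO-Post Palm replicate 2. A block on slide gave -0.24 (adjusted p = 0.787).

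Myom2 (base 4855, chr8:15133322-15133381 on mm9) encodes the myomesin of fast fibres. It gave 6.72, 6.36, 6.86 and 6.90 with EXO-Post BSA and 6.37, 6.95 and 6.38 with EXO-Post Palm. The groups overlapped fully, with EXO-Post Palm replicate 2 at the top. Myom2 had a log2 fold change of -0.14 (SE 0.24, adjusted p = 0.878), with a 95% interval of -0.69 to 0.41.

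The muscle alpha-actinins went opposite ways by small amounts. Their probes come from the same part of the 2 related transcripts, near the EF-hand end of the proteins, and are shown to let their likeness be seen. Capitals mark the 13 of 19 letters that match where the end of the Actn2 probe overlies the start of the Actn3 probe without gaps.
Actn2, base 2515: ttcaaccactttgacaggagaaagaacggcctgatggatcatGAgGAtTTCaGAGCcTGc
Actn3, base 2372: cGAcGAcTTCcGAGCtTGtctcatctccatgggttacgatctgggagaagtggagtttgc
Both cross introns on the minus strand of mm9, at chr13:12364990-12367362 and chr19:4861727-4862212.

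Actn2, found in all muscle fibres, had 0.42, 0.44, 0.71 and -0.13 with EXO-Post BSA and 0.22, 0.23 and 0.20 with EXO-Post Palm. The EXO-Post Palm arrays lay close to each other (SD 0.02) and inside the EXO-Post BSA range. Actn2 had a log2 fold change of -0.14 (SE 0.24, adjusted p = 0.877), with a 95% interval of -0.68 to 0.40.

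Actn3, the alpha-actinin of fast fibres, had 4.93, 4.87, 4.90 and 4.46 with EXO-Post BSA and 4.83, 5.17 and 4.87 with EXO-Post Palm. Replicate 4 of EXO-Post BSA stood apart on the low side, and the groups overlapped. Actn3 had a log2 fold change of 0.17 (SE 0.21, adjusted p = 0.828), with a 95% interval of -0.31 to 0.65. It was 0.06 without that array and 0.07 without replicate 2 of EXO-Post Palm. The non-muscle alpha-actinins Actn1 and Actn4 had log2 fold changes of -0.06 (adjusted p = 0.962) and -0.33 (adjusted p = 0.684).

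Tcap (base 807, chr11:98246127-98246186 on mm9) had 3.97, 3.65, 4.40 and 4.12 with EXO-Post BSA and 3.69, 3.82 and 3.76 with EXO-Post Palm. The EXO-Post Palm arrays lay in the lower part of the EXO-Post BSA range. Tcap had a log2 fold change of -0.28 (SE 0.23, adjusted p = 0.721), with a 95% interval of -0.79 to 0.24. It was 0.06 in the authors' processed values and 0.03 after normexp with quantile normalisation, so its direction depended on the processing. The normexp settings also took median spot intensities in place of the scanner's processed signal, and which of these changes moved the value was not tested. Quantile normalisation of the scanner's processed signal gave -0.23, and normexp with the 75th percentile gave -0.07.

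Desmin had the clearest value on the higher side. Its probe is printed 10 times on each array and ends just past the coding sequence, and its sequence is shown with the stop codon in capitals, followed by 4 letters.
Des, base 1428: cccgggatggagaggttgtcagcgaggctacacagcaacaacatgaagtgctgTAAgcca
The probe crosses an intron on the plus strand of mm9, at chr1:75363404-75363629.

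Mean values of the Des spots were 4.42, 4.84, 4.74 and 4.70 with EXO-Post BSA and 5.08, 5.31 and 5.15 with EXO-Post Palm. Every EXO-Post Palm array was above every EXO-Post BSA array, by a gap of 0.24. The spots of an array varied with an SD of 0.13 to 0.42, over 8 to 10 spots per array once 5 flagged spots on EXO-Post BSA arrays had been left out. Group means were 4.68 ± 0.18 (SD, n = 4) and 5.18 ± 0.12 (SD, n = 3), a level 1.42-fold higher with EXO-Post Palm. Des had a log2 fold change of 0.50 (SE 0.20, limma p = 0.0326, adjusted p = 0.446), and the exact permutation p was 0.0286. It was 0.45 within slide 1, 0.44 within slide 3, and 0.45 with slide as a block (adjusted p = 0.63). Des is on the study's own list of changed genes, which was drawn from these same arrays, so that listing is not independent evidence of its direction.

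Dystrophin was read at 4 places, of which 2 gave enough signal to be tested. The first probe lies in the actin-binding end, the next in the rod of spectrin-like repeats, and a further probe near the end of the protein that binds the membrane complex. They are printed to show where along the gene the signal was and was not found, with no letters marked.
Dmd, base 450: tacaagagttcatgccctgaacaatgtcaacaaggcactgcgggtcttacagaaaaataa
Dmd, base 4942: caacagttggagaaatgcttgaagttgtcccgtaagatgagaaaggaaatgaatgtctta
Dmd, base 10335: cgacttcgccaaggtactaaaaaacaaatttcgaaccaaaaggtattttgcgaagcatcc
On the plus strand of mm9 they lie at chrX:80596782-80596841, chrX:81132417-81132476 and chrX:82389391-82389450.

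At base 450 Dmd had -2.74, -2.24, -2.66 and -2.25 with EXO-Post BSA and -2.04, -2.22 and -1.48 with EXO-Post Palm. The groups did not overlap, but were only 0.01 apart. The first Dmd probe had a log2 fold change of 0.56 (SE 0.26, limma p = 0.0586, adjusted p = 0.517, exact permutation p = 0.0286), and 0.59 with slide as a block (adjusted p = 0.559). Without EXO-Post Palm replicate 3, the highest array, it was 0.34.

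At base 4942 Dmd had -1.73, -2.11, -2.23 and -1.59 with EXO-Post BSA and -1.95, -1.33 and -1.67 with EXO-Post Palm. The groups overlapped. The log2 fold change was 0.26 (SE 0.25, adjusted p = 0.764), and it turned to -0.05 with slide as a block (adjusted p = 0.966). The fold changes of the 2 tested Dmd probes differed by 0.29 (exact permutation p = 0.40).

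The remaining Dmd probes were too dim to test. At base 10335 the probe was well above background on 2 of 4 EXO-Post BSA and 1 of 3 EXO-Post Palm arrays. Its values were -4.62, -4.31, -4.78 and -3.78 with EXO-Post BSA and -5.52, -6.05 and -6.04 with EXO-Post Palm. These scaled values did not overlap between groups. The intensities before scaling were low, at 8.346 to 35.25 with EXO-Post Palm and 30.99 to 53 with EXO-Post BSA. The probe was too near background for a direction to be read. At base 14850 of a longer transcript (chrX:82451421-82451480), no array was well above background, so no fold is given. A further dystrophin probe, annotated under ENSMUST00000101404, was also too dim to be tested, as was an alpha-actinin-2 probe under ENSMUST00000110616.

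**Figure D3:**
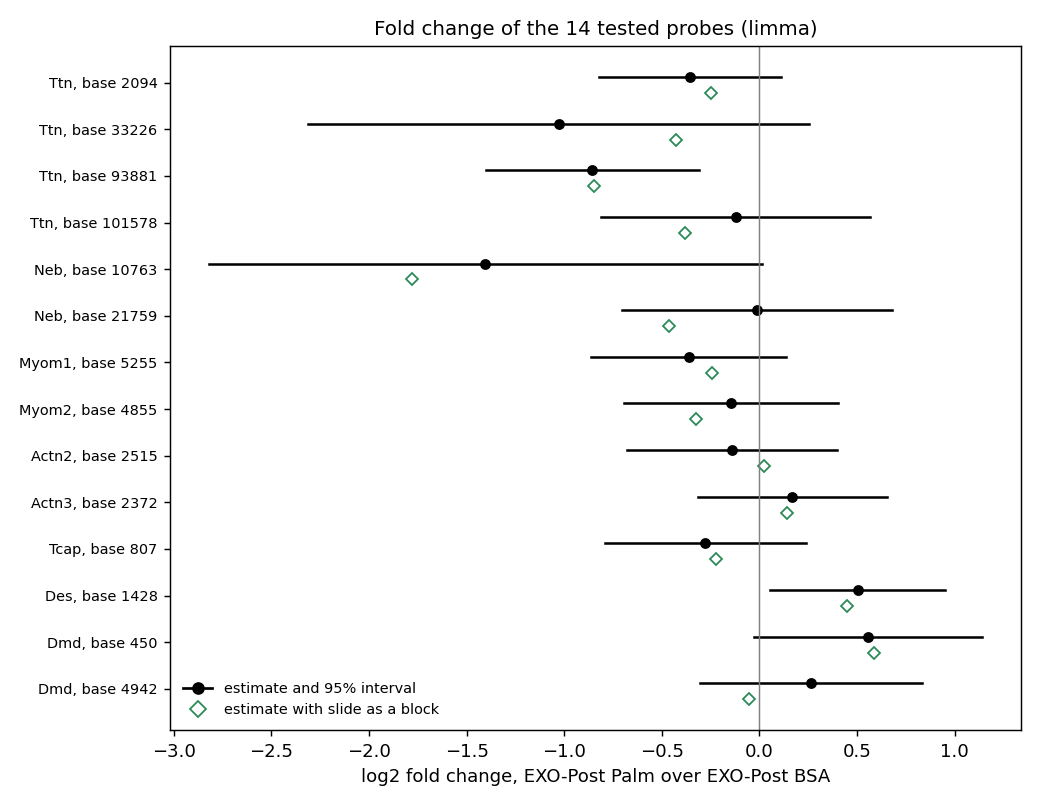
The horizontal axis is the log2 fold change of EXO-Post Palm over EXO-Post BSA for the 14 tested probes, with filled points for the limma estimate, lines for its 95% interval and open diamonds for the estimate with slide as a block. Lines of Ttn at base 93881 and of Des do not reach 0, and their adjusted p-values were 0.245 and 0.446.

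Other genes of the same structures were read from lists, with each gene taken by its brightest tested probe. Of 44 tested genes for sarcomere scaffold and Z-disc partners, EXO-Post Palm had 18 at a higher and 26 at a lower mean, with a median log2 fold change of -0.07 and no gene past the adjusted threshold (lowest adjusted p = 0.184). At an unadjusted p of 0.05, 3 were higher and 5 lower, beside 10.0% of all probes. The lowest p belonged to Ankrd2, a stretch-responsive partner of titin, at 0.80 (SE 0.20, adjusted p = 0.184), followed by Unc45b, a chaperone of myosin, at -0.89 (SE 0.22, adjusted p = 0.19). Next came the actin-binding repeat protein Xirp2 at 0.70 and the Z-disc protein myotilin (Myot) at -1.09, and then palladin (Palld) at -0.62 and the thin filament cap Tmod1 at -0.97. The highest value was that of Synpo2 at 1.02 (SE 0.90) and the lowest that of Lmod2, which elongates thin filaments, at -1.25 (SE 0.66). A lone array set most of each value, replicate 4 of EXO-Post BSA for Synpo2 (-5.42, against -1.78 to -1.42 in its group) and replicate 2 of EXO-Post Palm for Lmod2 (-3.97, against -1.75 and -0.67). With slide as a block Lmod2 was at -0.31.

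Of 10 tested genes for other intermediate filaments and lamins, 3 were higher and 7 lower, and none passed the adjusted threshold. Lmnb1, a lamin of the nuclear envelope, had the highest value at 1.02 (SE 0.29, adjusted p = 0.252). Synemin (Synm), which joins desmin filaments, had the lowest at -0.82 (SE 0.24, adjusted p = 0.268), and Krt19 was at -0.76 (adjusted p = 0.323). The Synm probe was well above background on 4 of 4 EXO-Post BSA but only 1 of 3 EXO-Post Palm arrays. It was therefore tested through EXO-Post BSA alone, and the size of its difference is uncertain. Vimentin (Vim), the filament protein of myoblasts, had -0.20 (SE 0.28, adjusted p = 0.843).

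Of 19 tested genes for the dystrophin-associated complex, 7 were higher and 12 lower, with a median of -0.11, 0 past the adjusted threshold and 0 at an unadjusted limma p of 0.05. The lowest was Lama2, the laminin chain that dystroglycan binds, at -3.23 (SE 1.81, adjusted p = 0.60). Its EXO-Post Palm arrays were 0.95, 2.07 and -6.86 against 1.49 to 2.51 with EXO-Post BSA, so replicate 3 set that value. The Lama2 probe was well above background on 4 of 4 EXO-Post BSA but only 2 of 3 EXO-Post Palm arrays. It was therefore tested through EXO-Post BSA alone.

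Markers of cell state and of other cell types are given as measurements. Of 20 tested myotube markers, 18 had a lower and 2 a higher mean in EXO-Post Palm, beside 47.3% higher among all tested probes. Their median log2 fold change was -0.24, with 0 past the adjusted threshold (lowest limma adjusted p = 0.304). At an unadjusted limma p of 0.05, 5 were lower, beside 1121 of the 21585 tested probes. The list median per array was 6.33 to 6.67 with EXO-Post BSA and 5.86 to 6.08 with EXO-Post Palm. All 20 were well above background on all 7 arrays. Of 9 tested proliferation markers, 9 were higher, 7 of them past the adjusted threshold, and the list median was -1.01 to -0.72 with EXO-Post BSA and 1.44 to 2.48 with EXO-Post Palm. Ccnb1, a mitotic cyclin, had a log2 fold change of 2.76 (SE 0.28, adjusted p = 0.0108).

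Of 9 tested fibroblast and smooth muscle markers, 4 were higher and 5 lower, and Tagln (-1.88) and Cnn1 (-1.54) passed the threshold. The median log2 fold change of the list was -0.35. Its median level per array was 4.59 to 4.70 with EXO-Post BSA and 2.44 to 2.68 with EXO-Post Palm, and the middle value of the 9 genes was that of Tagln or Col1a1 on each of the 7 arrays. Of 8 tested myoblast markers, 2 were higher and 6 lower, with none past the threshold and a list median of 0.55 to 0.99 against 0.68 to 1.28. Of 5 adipocyte markers only Cebpa (1.28, limma adjusted p = 0.188) and Pparg (-0.09) were bright enough to test. The list median over these genes alone was -1.51 to -1.13 against -1.02 to -0.32. Adipoq was well above background on 1 array, and Fabp4 and Plin1 each on 2 EXO-Post BSA arrays and 1 EXO-Post Palm array. The markers Myf5, Aurkb and Myh11 were not well above background on any array. Their part in the values of the 9 genes was not tested.

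**Figure D4:**
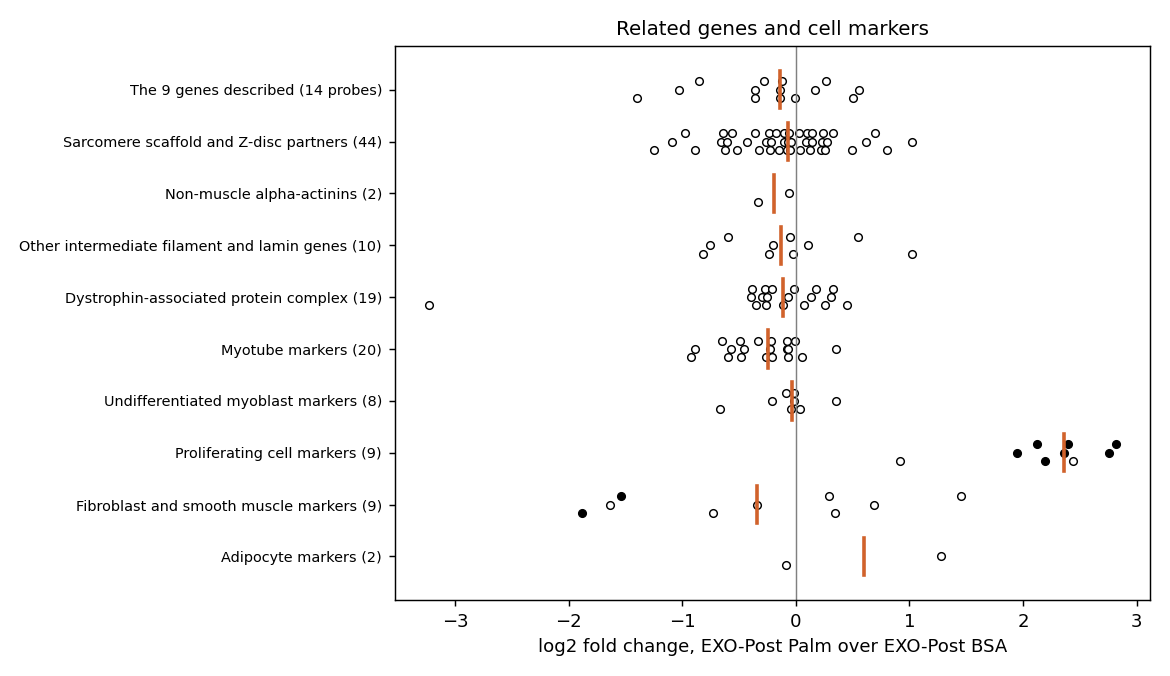
The horizontal axis is the log2 fold change of EXO-Post Palm over EXO-Post BSA, with a point per tested probe of the 9 genes and per tested gene of each list, its number given in the row name. Filled points have an adjusted p under 0.05 and orange bars are medians. Filled points occur among proliferation markers (7) and fibroblast and smooth muscle markers (2), and the 9 genes have none.

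For each gene, the 3 named genes whose values over the arrays were most like its brightest tested probe were listed by Pearson's r. The search covered all tested probes, over 7 arrays that share the group difference (6 for Ttn), so high values of r were found for every gene. For Des they were Mrgpre, Cpt1c and Gfra4 (r = 0.985, 0.981 and 0.98). For the Ttn 3' end probe they were Arhgdig, Plcg2 and Zkscan3 (0.996 to 0.994), and for Neb at base 10763 Surf2, Asah1 and Tspan2 (each 0.991). Myom1 was most like Tanc1, Mical1 and Atn1 (0.986 to 0.979), and Myom2 most like Slc25a5, Enox2 and Prrg2 (0.99 to 0.981). Actn2 was most like Slc37a1, Krtap10-4 and Lage3 (0.993 to 0.986), and Actn3 most like Gm2479, Pstk and Zfp622 (0.992 to 0.98). Tcap was most like Akr1b10, S100a14 and Gm6091 (0.971 to 0.967), and Dmd most like Lhfpl2, Tsen54 and Bub3 (0.977 to 0.962).

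**Figure D5:**
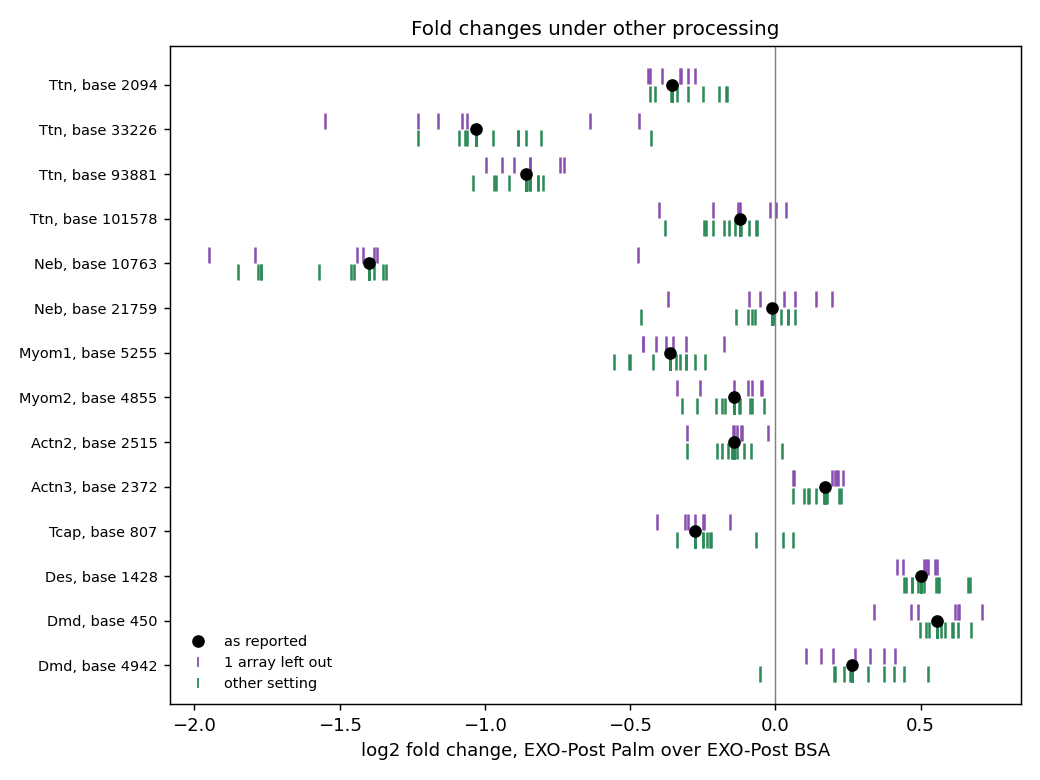
The horizontal axis is the log2 fold change of EXO-Post Palm over EXO-Post BSA for each tested probe, with a black point for the value as reported, green marks for other processing settings and purple marks for 1 array left out. Des, Ttn at base 93881 and Neb at base 10763 keep their side of 0 under all of them, from 0.42 to 0.67, from -1.04 to -0.73 and from -1.95 to -0.47.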

How the data were processed

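RNA of C2C12 cells from 7 cultures was measured on 1-colour Agilent arrays. The authors deposited scanner intensities per spot, background-subtracted but unnormalised across arrays, and their own processed log2 values (methods name Agi4x44PreProcess and limma, settings not given in the sources used here). Here log2 intensity minus each array's 75th percentile over 43020 non-control spots was used. Spots that the software flagged were left out, repeated spots averaged, and probes kept when well above background on 75% of the arrays of a group. A model on condition was fitted over 7 arrays with limma 3.58.1 (R 4.3.3) with Benjamini-Hochberg adjustment over 21585 probes. Alternatives, 24 in all, covered scaling, background, filter, slide, replicate number, test and each array left out. The normexp background correction used median spot intensities, since a file held no mean. Code was tested on simulated data. The number of arrays limits the precision. Coordinates are those of the array annotation (mm9), and sequences those of its probes. Named genes are the 9 with every probe, and from each list the highest, the lowest and up to 6 with the lowest p. Not every gene so chosen is reported here. The genes and lists were chosen with earlier results of these data known.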

Additional observations from a re-analysis of the deposited data

Results flagged for a closer look

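Among the probes with 4 EXO-Post BSA values, 1 array lay apart from its group by Dixon's criterion. Actn3 on EXO-Post BSA replicate 4 was at 4.46, against 4.87 to 4.93 on the other arrays of that group. The log2 fold change of Actn3, 0.17, was 0.06 without this array. Groups of 4 were examined for 15 probes, and chance marks about 5% of such groups.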

How the results depend on the processing

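Under each of the 24 alternatives 0 probes of the 9 genes reached an adjusted p of 0.05, and the lowest adjusted p was 0.136, for Ttn at base 93881 after normexp. At an unadjusted p of 0.05, 2 probes passed by limma and 2 by Student's t-test (Des and Ttn at base 93881). The number of all probes called, 115, became 0 with no probe filter (1900 at an unadjusted p of 0.05), 0 with the methods' t-test after adjustment (2108 unadjusted), 181 with slide as a random block, 173 with a trended and robust fit and 2169 with limma unadjusted. Leaving out an array gave 4 to 228, with 4 without EXO-Post Palm replicate 3, 7 without its replicate 1, 228 without its replicate 2 and 61 to 69 without an EXO-Post BSA array. The median log2 fold change of the 14 probes stayed negative, from -0.32 (without EXO-Post Palm replicate 2) to -0.0902 with an array left out and from -0.246 to -0.0859 otherwise.

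The sign of 5 probes turned under some settings, always with an adjusted p of at least 0.905. Neb at base 21759 was 0.0444 after quantile normalisation, 0.0447 with the percentile over detected probes, 0.0202 after normexp with quantile normalisation and 0.0694 with the replicate block, and ran from -0.369 to 0.195 with an array left out. Ttn at base 101578 ran from -0.402 to 0.0358 with an array left out (0.0358 without EXO-Post Palm replicate 1). Tcap was 0.0257 after normexp with quantile normalisation and 0.0621 in the authors' values. With slide as a fixed block Actn2 was 0.0239 and Dmd at base 4942 was -0.0532. The causes were not tested.

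Equal replicate numbers did not pair the arrays (correlations of deviations 0.12, -0.15 and -0.15). A block on replicate number, over 6 arrays, called 0 probes (limma, 1933 at an unadjusted p of 0.05) and 0 of the 9 genes.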
